A study of Drosophila melanogaster with 26 samples.

Results

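Embryos labelled Zld294 were set against wild-type embryos of 2 labelled days, in 17 of the 26 libraries of a Drosophila melanogaster series. The Zld294 group had 8 libraries of day 3, whose only genotype label is Zld294, a name that in fly genetics belongs to a loss-of-function allele of zld. WT day 1 had 3 libraries with the genotype label sfGFP-ZLD, a fusion of green fluorescent protein to Zelda, and WT day 2 had 6 libraries with the label H2B-EGFP, a histone H2B fused to green fluorescent protein. All embryos were staged to nuclear cycles 13 to 14, each library was made from a pool of 3 embryos, and no treatment is given. The headers of the Zld294 values carry the letters GLC, which no label explains. The labels do not say how the Zld294 embryos were obtained, what drives the fusion genes, what sex the embryos had or whether the pools came from separate collections. The p-values therefore measure the spread between these pools. Each genotype label occurs on 1 labelled day, so genotype and day cannot be told apart. For that reason Zld294 was compared with each wild type apart, and the results below are mainly those that went the same way against both.

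Zelda, the product of zld, is a zinc finger transcription factor that mothers load into the egg as mRNA. It is known as a pioneer factor: it binds short DNA motifs in closed chromatin early in development and makes enhancers accessible to other factors. The first cycles of the fly embryo run on maternal mRNA. Zygotic transcription begins with a small set of short genes and becomes broad in nuclear cycle 14, when the nuclei of the blastoderm are enclosed in cells.

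Transcript levels are given in TPM (a level per transcript length, scaled to the same total in every library), and TPM keeps no read depth. A gene was tested where it had at least 1 TPM in at least 3 of the 17 libraries, which left 7395 of 14220 genes. Fold changes come from limma on log2(TPM + 1) and run Zld294 over wild type. They understate the change of low genes. Where 3 levels are given for a group, those of Zld294 and WT day 2 are its lowest, median and highest library, and those of WT day 1 are its 3 libraries in the order of their replicate numbers. A gene is called at a Benjamini-Hochberg adjusted p under 0.05 over all genes tested, and "called the same way against both" means called in both comparisons with the same sign. The Zld294 libraries enter both comparisons, so the comparisons are not independent of each other.

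The libraries had between 8523 and 10279 genes above 0, and no 2 libraries held the same values. Within groups, each library's median correlation to its fellow libraries was 0.966 to 0.990 in Zld294, 0.884 to 0.947 in WT day 1 and 0.856 to 0.978 in WT day 2. Replicate 3 of WT day 1 and replicate 5 of WT day 2 stood furthest apart. All 10 blastoderm markers reached at least 1 TPM in some library of every group, though not in every library. Their summed levels were 326.8 to 780.4 TPM in Zld294, 967 to 8530 TPM in WT day 1 and 427.7 to 5152 TPM in WT day 2. The marker slam alone had 288.9 to 381.9 TPM in Zld294. In Zld294 replicate 2 slam had 314.1 TPM, and ftz, twi, bnk and nullo had 0.146, 0.391, 0.292 and 0.683 TPM. The markers slam, Sry-alpha and bnk were themselves called lower against both. The 10 markers of adult ovary and follicle cells summed to at most 1.94 TPM in any library, and the 12 markers of later tissues to at most 6.89 TPM in Zld294 and 0.575 TPM in wild type. The 5 markers of primordial germ cells summed to 702.9 to 1303 TPM in Zld294, 267.6 to 935 TPM in WT day 1 and 296.5 to 1323 TPM in WT day 2. Transcripts of the 23 ribosomal RNA genes and pseudogenes can reflect how well ribosomal RNA was removed, which was not tested. They summed to 241.5 to 1200 TPM in Zld294, 1074 to 4578 TPM in WT day 1 and 843 to 35593 TPM in WT day 2. They were lower in Zld294 with a small overlap. Of the 10 that were tested, 8 were called lower against both wild types, against 4.38% of all genes tested. Their part in the other results was not tested.

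The transcript of zld itself was nearly absent from the Zld294 libraries. It had a lowest, median and highest level of 0.0873, 1.34 and 43.2 TPM in Zld294, against 1344, 1343 and 914 TPM in the 3 libraries of WT day 1 and 900.2, 914 and 1013 TPM as lowest, median and highest of WT day 2. Every wild-type library lay far above the highest Zld294 library. The log2 fold change was -8.23 (SE 1.03, limma adjusted p = 0.000214) against WT day 1 and -7.89 (SE 0.72, limma adjusted p = 2.59e-06) against WT day 2. Within Zld294, replicates 7 and 8 had 43.2 and 20.2 TPM, and the other libraries had at most 2.39 TPM. In the BDGP6.54 annotation the gene occupies chromosome X, minus strand, positions 19766465 to 19783548.

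In Zld294, 327 genes were higher and 324 lower against both wild types, 4.42% and 4.38% of the 7395 genes tested. Against WT day 1, 1416 genes (19.1%) were higher and 664 (8.98%) lower. Against WT day 2, 897 (12.1%) were higher and 886 (12%) lower, and 109 genes (1.47%) were called in opposite directions. In 170 of the 327 (2.3% of genes tested) and in 182 of the 324 (2.46%), no Zld294 library overlapped any wild-type library. Over all genes tested, called or not, 180 (2.43%) were higher and 184 (2.49%) lower without overlap. The largest changes were falls: 46 genes fell by more than 3 on the log2 scale against both, zld included, and 7 rose by as much. Over all genes tested the median log2 fold change was 0.23 against WT day 1 and 0.058 against WT day 2. Scaling the libraries by median ratios moved the first of these to 0.050, and the counts of the same-way calls to 227 higher and 387 lower.

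The counts depend on single libraries and on whether the replicate number enters the model. Without Zld294 replicates 7 and 8, 194 genes were higher and 236 lower against both, and 418 of the 651 calls were among them. Without replicate 3 of WT day 1 and replicate 5 of WT day 2, 519 were higher and 378 lower. Without replicate 1 of WT day 1, 903 genes were higher and 439 lower against WT day 1, and without its replicate 2 there were 2195 higher and 834 lower. With the replicate number as a block, 32 genes were higher and 69 lower against both. The blocked fit against WT day 1 rests on 3 pairs of same-numbered libraries, a pairing that no label states. It gives the 5 Zld294 libraries without a partner no weight. It has 2 residual degrees of freedom, against 9 without the block. The blocked fit against WT day 2 has 5, against 12, and there the replicate numbers do not pair the libraries. Whether lost calls come from pairing or from fewer degrees of freedom was not tested. Of the 46 genes that fell past 3, 34 kept both calls in the blocked fits and all 46 kept the negative sign. Of the 7 that rose past 3, 6 kept both calls.

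**Figure D1:**
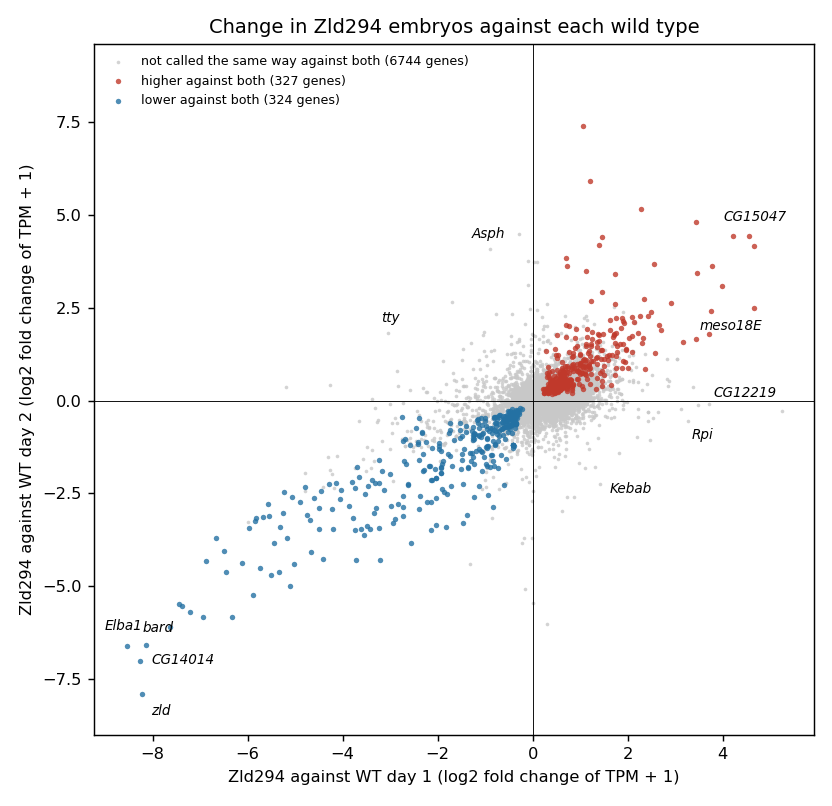
Log2 fold change of TPM + 1 in Zld294 against WT day 1 (horizontal axis) and against WT day 2 (vertical axis) for the 7395 genes tested, 1 point a gene. The 327 genes called higher against both are red and the 324 called lower are blue; the Zld294 libraries enter both axes. The lower arm reaches beyond -8 and -7, and named genes off the diagonal went opposite ways.

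The genes that fell most were near 0 TPM in Zld294. For the 46 that fell past 3 the median wild-type level was 67.45 TPM, against 49.14 TPM over all genes tested. Genes of a few TPM in wild type cannot fall past 3 on this scale, so the threshold keeps them out of the 46. The 12 largest falls without overlap were CG14014, Elba1, bard, dunk, scw, sordd2, Bro, CG8960, Elba3, CG18269, Cyp12d1-p and tsg. Summed over these 12, the level was 0.915 to 7.96 TPM in Zld294, 872 to 6948 TPM in WT day 1 and 198 to 5284 TPM in WT day 2. The wild-type libraries thus differed widely from each other. Their separation from Zld294 in these 12 genes follows from the choice of genes without overlap. All 12 were called under every alternative that tested them.

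**Figure D2:**
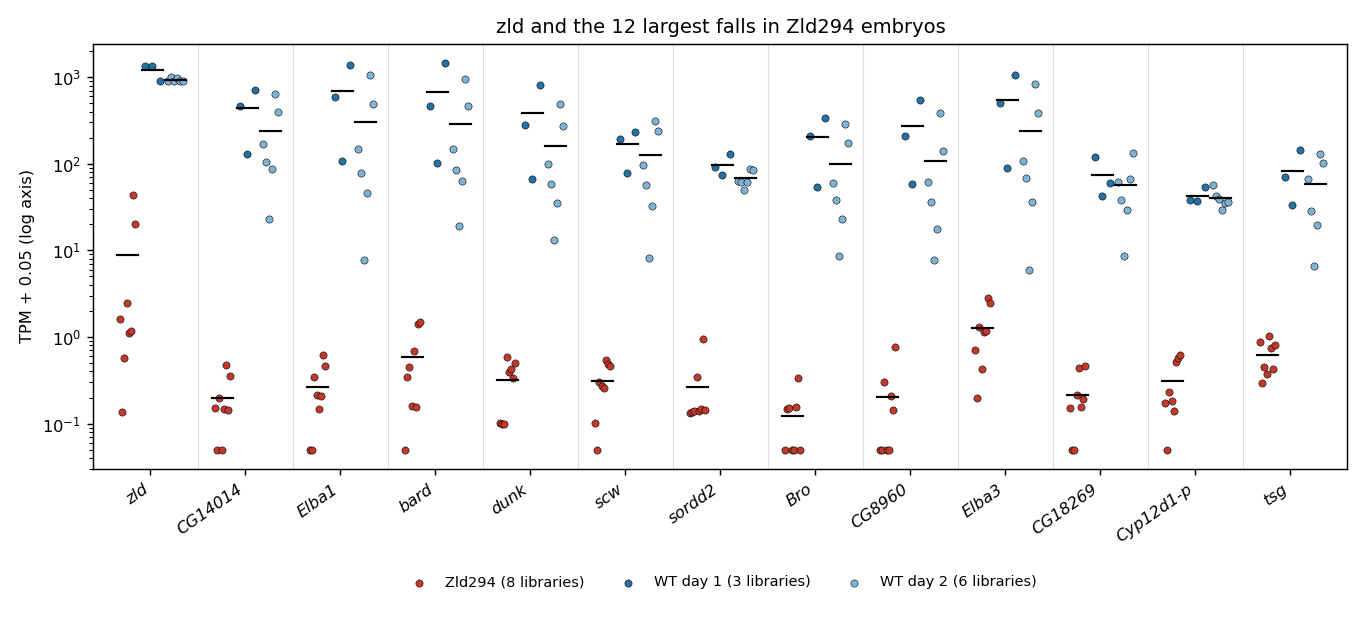
Level of zld and the 12 genes with the largest falls in each library, as TPM + 0.05 on a log axis; points are libraries, bars are group means, with Zld294 in red, WT day 1 in dark blue and WT day 2 in light blue. The 8 Zld294 points lie below the 9 wild-type points in zld, and in the other 12 genes by the choice of genes without overlap. The wild-type points of most genes are widely spread.

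CG14014, a gene with no named function, had 0, 0.0997 and 0.427 TPM in Zld294, against 462, 129 and 714 TPM in WT day 1 and 22.9, 138 and 639 TPM in WT day 2. Its log2 fold change was -8.26 (SE 0.39, limma adjusted p = 1.08e-07) against WT day 1 and -7.01 (SE 0.55, limma adjusted p = 5.07e-07) against WT day 2. It lies on chromosome 2L from 5549709 to 5550835 on the minus strand, and CG18269 begins 1002 bases away on the plus strand, at 5551838. CG18269, also unnamed, had 0, 0.124 and 0.406 TPM in Zld294, against 119, 42.4 and 60.6 TPM in WT day 1 and 8.50, 50.1 and 134 TPM in WT day 2 (log2 fold changes -5.89 and -5.22). Both genes of this head-to-head pair were thus low in all 8 Zld294 libraries.

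Elba1 and Elba3 form a second such pair. They encode parts of the ELBA complex, which with the product of Elba2 binds a boundary element of the bithorax complex in early embryos. Elba1 had 0, 0.161 and 0.570 TPM in Zld294, against 590, 108 and 1400 TPM in WT day 1 and 7.72, 114 and 1066 TPM in WT day 2. Elba3 had 0.146, 1.10 and 2.81 TPM in Zld294, against 498, 88.6 and 1066 TPM in WT day 1 and 5.86, 88.8 and 839 TPM in WT day 2. Both were separated from all wild-type libraries. The log2 fold changes were -8.55 (SE 0.56, limma adjusted p = 1.66e-06) and -6.61 (SE 0.80, limma adjusted p = 3.56e-05) for Elba1, and -7.45 and -5.48 for Elba3. The 2 genes lie 3049 bases apart on chromosome 2L, Elba1 from 4683052 to 4684461 on the minus strand and Elba3 from 4687511 to 4688956 on the plus strand. CG11929 overlaps Elba1 on the other strand and was also lower (-2.13 and -1.28), and reads of the 2 cannot be told apart where the counting is not stated to use strand.

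Elba2, on chromosome 2L from 2577687 to 2579179, was not called. Its level was 220.3, 272.8 and 298.8 TPM in Zld294, against 208 to 1387 TPM in WT day 1 and 269.6, 343 and 972 TPM in WT day 2, with log2 fold changes of -0.96 (limma adjusted p = 0.0976) and -0.65 (limma adjusted p = 0.0590). Of the 14 ELBA and insulator genes tested, Elba1 and Elba3 fell and su(Hw), an insulator-binding zinc finger protein, rose (0.73 and 0.53). Over all genes 4.38% were lower and 4.42% higher against both. The su(Hw) call against WT day 1 was lost with the replicate block (limma adjusted p = 0.0816). The insulator genes CTCF, BEAF-32, Cp190 and mod(mdg4) were not called the same way against both.

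The wild-type levels behind the large falls were of different kinds. In sordd2 and Cyp12d1-p the wild-type libraries were close together. sordd2 had 0.0833, 0.0919 and 0.902 TPM in Zld294, against 91.1, 73.4 and 129 TPM in WT day 1 and 50.1, 62.3 and 87.8 TPM in WT day 2, with log2 fold changes of -6.33 (SE 0.22, limma adjusted p = 8.40e-09) and -5.82 (SE 0.17, limma adjusted p = 9.24e-12). Cyp12d1-p, a cytochrome P450, had 0, 0.159 and 0.568 TPM in Zld294, against 37.7, 36.8 and 53.2 TPM in WT day 1 and 28.9, 37.8 and 56.1 TPM in WT day 2 (-5.11 and -5.003). In bard and CG8960 the wild-type libraries were far apart. bard had 0, 0.345 and 1.43 TPM in Zld294, against 465, 103 and 1446 TPM in WT day 1 and 19.2, 117 and 941 TPM in WT day 2 (-8.14 and -6.57). CG8960 had 0, 0.0473 and 0.711 TPM in Zld294, against 208, 58.4 and 548 TPM in WT day 1 and 7.61, 48.9 and 384 TPM in WT day 2 (-7.39 and -5.52).

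Many tested genes on the list of cellularization and blastoderm-transient genes (those expressed briefly in the blastoderm) fell. Cellularization is the process that encloses the blastoderm nuclei. The list also holds genes with other roles, such as halo and Z600. Of 14 tested, 7 were lower against both, against 4.38% of all genes, and none was higher. The median log2 fold change was -4.72 against WT day 1 and -2.58 against WT day 2, beside 0.23 and 0.058 over all genes. The 7 were bard, dunk, halo, bnk, Sry-alpha, Z600 and slam. The list was drawn up with earlier results of these data known, so its direction is no independent evidence. In pooled embryos, fewer cells of a type and less RNA per cell cannot be told apart.

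The actomyosin regulator dunk had 0.0488, 0.312 and 0.543 TPM in Zld294, against 282.5, 67.0 and 817 TPM in WT day 1 and 13.2, 79.2 and 492 TPM in WT day 2. Its neighbourhood on chromosome 2L is shared, since it lies from 22151623 to 22152640 inside CG42748 on the same strand. CG42748 itself was not called (-0.22 and -0.0060), with 111 ± 10.7 TPM in Zld294 (SD, n = 8), 130 ± 4.55 TPM in WT day 1 (SD, n = 3) and 112 ± 16.99 TPM in WT day 2 (SD, n = 6). The gene halo, which controls lipid droplet transport, had 0.0490, 0.271 and 0.986 TPM in Zld294, against 164, 38.7 and 607 TPM in WT day 1 and 1.69, 24.8 and 305 TPM in WT day 2. bnk, which restrains the contractile rings of cellularization, had 0.292, 10.2 and 32.8 TPM in Zld294, against 432, 115 and 1248 TPM in WT day 1 and 18.6, 115 and 859 TPM in WT day 2. In bnk the groups overlapped through replicate 3 of WT day 2, and Zld294 replicates 6, 7 and 8 were the highest of their group.

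Sry-alpha, an actin regulator of the same process, fell by 5.27 and 3.03 on the log2 scale, and slam, a membrane protein of the cleavage furrow, by 2.25 and 1.13. Slam stayed abundant in Zld294: its level was 289, 328 and 382 TPM, against 554 to 4346 TPM in WT day 1 and 362.5, 597 and 2705 TPM in WT day 2. nullo, another furrow gene, did not pass against either wild type (-2.93, limma adjusted p = 0.0507, and -2.18, limma adjusted p = 0.108), with 0.683, 15.4 and 56.1 TPM in Zld294, against 45.4 to 196 TPM in WT day 1 and 7.49, 73.4 and 307 TPM in WT day 2. The genes bnb and term were lower against WT day 1 only. The effects on the 7 genes therefore ran from near absence in dunk and halo to a partial fall in slam.

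Of the genes on the BMP ligand list 4 fell and none rose. BMP signalling patterns the dorsal side of the embryo: the ligands Dpp and Screw are held by Sog and Tsg and released when the protease Tolloid cleaves Sog. Of 11 BMP ligands and extracellular regulators tested, scw, tld, tsg and srw were lower against both, against 4.38% of all genes, with list medians of -2.35 and -0.94 beside 0.23 and 0.058 over all genes. The ligand gene scw had 0, 0.239 and 0.493 TPM in Zld294, against 194, 77.9 and 231 TPM in WT day 1 and 8.12, 77.5 and 315 TPM in WT day 2. Its log2 fold change was -6.93 (SE 0.29, limma adjusted p = 3.34e-08) and -5.84 (SE 0.62, limma adjusted p = 1.03e-05).

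The fold changes of tld and tsg were smaller than those of scw. tld showed no overlap of libraries, and tsg was picked for having none. tld had 0, 0.155 and 0.348 TPM in Zld294, against 54.6, 14.5 and 269 TPM in WT day 1 and 3.16, 29.6 and 220.4 TPM in WT day 2 (log2 fold changes -5.74 and -4.51). tsg had 0.244, 0.545 and 0.974 TPM in Zld294, against 70.7, 33.3 and 144 TPM in WT day 1 and 6.53, 47.2 and 130 TPM in WT day 2 (-5.51 and -4.69). With the replicate block the call of tld against WT day 1 was lost (limma adjusted p = 0.0563). srw had at most 0.631 TPM in Zld294, against 8.38 to 60.9 TPM in WT day 1 and 0.506 to 60.3 TPM in WT day 2.

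The other ligand gene, dpp, passed against WT day 1 only. Its log2 fold change was -3.38 (limma adjusted p = 0.00491) against WT day 1 and -1.34 (limma adjusted p = 0.155) against WT day 2. sog, the ligand antagonist, passed against neither (-0.88 and 0.17). Of 18 receptors, transducers and dorsal targets tested, wit, Dad and zen2 fell, against 4.38% of all genes, and none rose. In the blocked fits 1 of the 18 was lower against both. wit, a type II BMP receptor, had 0.215, 0.932 and 3.49 TPM in Zld294, against 10.9, 9.50 and 4.49 TPM in WT day 1 and 10.7, 22.1 and 48.2 TPM in WT day 2. Dad, an inhibitory Smad and a target of the pathway, had 0.654, 1.32 and 1.71 TPM in Zld294, against 11.8, 16.6 and 1.14 TPM in WT day 1 and 10.1, 21.6 and 64.9 TPM in WT day 2, and overlapped only replicate 3 of WT day 1. Both lost the call against WT day 1 with the replicate block (limma adjusted p = 0.0681 for wit and 0.188 for Dad). The receptor genes tkv, sax and put and the transducers Mad and Med, which were above 100 TPM in all Zld294 libraries, were not called the same way against both.

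Of the X-linked genes that count X chromosomes for sex determination, sisA and sc fell against both wild types. The X-linked run passed against neither (-2.46, limma adjusted p = 0.0674, and -1.21, limma adjusted p = 0.319). Of 16 sex determination genes tested, sisA, sc and emc fell against both, against 4.38% of all genes. The gene emc lies on chromosome 3L, and its fall was smaller (-0.78 and -0.43). sisA had 0, 0.238 and 0.607 TPM in Zld294, against 11.5, 11.8 and 112 TPM in WT day 1 and 7.88, 22.6 and 46.0 TPM in WT day 2 (log2 fold changes -4.42 and -4.26). sc had 0, 2.37 and 5.87 TPM in Zld294, against 29.7, 27.6 and 37.5 TPM in WT day 1 and 8.06, 39.7 and 117 TPM in WT day 2 (-3.55 and -3.62). Sxl, the switch gene they act on, was not called (-1.38, limma adjusted p = 0.221, and -0.84, limma adjusted p = 0.294), with 17.4, 30.6 and 51.2 TPM in Zld294, against 25.1 to 665 TPM in WT day 1 and 21.4, 40.8 and 434 TPM in WT day 2. The sex of the embryos in a pool bears on these genes and is not labelled. With the replicate block sisA lost its call against WT day 1 (limma adjusted p = 0.0792) and emc lost both, which left 1 of the 16. The call of emc against WT day 2 was at the threshold (limma adjusted p = 0.0496), and emc kept both calls in 10 of 30 alternatives.

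The gene sc belongs to a row of proneural genes on chromosome X whose 3 tested members all fell. ac lies from 370031 to 370947, sc from 396060 to 397497 and l(1)sc from 409721 to 410817, all on the plus strand. ac was at most 0.0508 TPM in Zld294, against 6.55 to 13.3 TPM in WT day 1 and 0.751 to 26.2 TPM in WT day 2 (log2 fold changes -3.31 and -2.90). l(1)sc had 0.0973, 0.973 and 1.78 TPM in Zld294, against 16.4, 17.8 and 12.7 TPM in WT day 1 and 3.27, 18.0 and 73.9 TPM in WT day 2 (-3.24 and -3.43). CG32816, which spans all 3 on the opposite strand, rose instead, by 1.36 and 1.57 on the log2 scale. amos, another proneural gene, fell by 5.03 and 4.41.

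Of 21 neuroectoderm and EGF receptor genes tested, ac, l(1)sc, Egfr, kek1 and wor fell, against 4.38% of all genes, and none rose. In the blocked fits 2 of the 21 were lower against both, and wor lost its call against WT day 1 (limma adjusted p = 0.127). Egfr, the receptor, had 0, 0.423 and 1.76 TPM in Zld294, against 117, 12.5 and 275 TPM in WT day 1 and 0.119, 17.9 and 198 TPM in WT day 2, and replicate 3 of WT day 2 lay within the range of Zld294. Its log2 fold changes were -5.68 (SE 0.72, limma adjusted p = 0.000235) and -3.14 (SE 0.91, limma adjusted p = 0.0208), and both calls were lost with the replicate block (limma adjusted p = 0.0823 and 0.0636). The early neural genes sog, vnd, brk and SoxN passed against neither wild type.

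Several genes of the Notch pathway list fell. Of 16 Notch and mesectoderm genes tested, E(spl)m4-BFM, Ocho, Brd, Tom and E(spl)m5-HLH were lower against both, against 4.38% of all genes, and none was higher. E(spl)m4-BFM, Ocho, Brd and Tom encode small Bearded-type inhibitors of Neuralized, and E(spl)m5-HLH encodes a repressor of the Enhancer of split complex. E(spl)m4-BFM had 0.0976, 0.762 and 1.11 TPM in Zld294, against 31.0, 27.6 and 54.4 TPM in WT day 1 and 4.45, 24.4 and 38.3 TPM in WT day 2 (log2 fold changes -4.49 and -3.45). Ocho was above 0 in 3 of the 8 Zld294 libraries, with at most 0.291 TPM, against 6.44 to 32.8 TPM in WT day 1 and 1.42 to 15.1 TPM in WT day 2. Tom, Brd and Ocho lie in a row on chromosome 3L between 14969344 and 14976040, all on the plus strand. The receptor gene N, the ligand gene Dl and neur, the gene of their target, were not called the same way against both.

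None of 17 gap genes, 13 pair-rule genes, 12 segment polarity genes or 13 mesoderm genes tested was called the same way against both. At 4.42% higher and 4.38% lower over all genes, lists of this size would hold few calls, so these counts do not set them apart. eve, a pair-rule gene, had 2.24, 18.9 and 38.3 TPM in Zld294, against 44.8 to 119 TPM in WT day 1 and 3.13, 20.6 and 42.3 TPM in WT day 2. Its log2 fold change was -2.01 (limma adjusted p = 0.0339) against WT day 1 and -0.019 (limma adjusted p = 0.985) against WT day 2.

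Against WT day 1 alone, 6 of the 13 pair-rule genes were lower, namely eve, ftz, odd, prd, ftz-f1 and Ten-m. Against WT day 2 none was lower, and slp2, drm and Ten-m were higher. Over all genes 8.98% were lower against WT day 1 and 12.1% higher against WT day 2. The gap gene Kr had 2.56, 39.9 and 109 TPM in Zld294, against 25.2 to 318 TPM in WT day 1 and 1.09, 15.9 and 127 TPM in WT day 2. The mesoderm gene sna had 1.51, 24.6 and 84.1 TPM in Zld294, against 13.9 to 89.1 TPM in WT day 1 and 2.80, 15.3 and 58.1 TPM in WT day 2. Neither gene was called. Of 6 Hox-complex genes tested, zen2 was lower against both, against 4.38% of all genes. Antp, abd-A and Abd-B were higher against WT day 2 only.

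**Figure D3:**
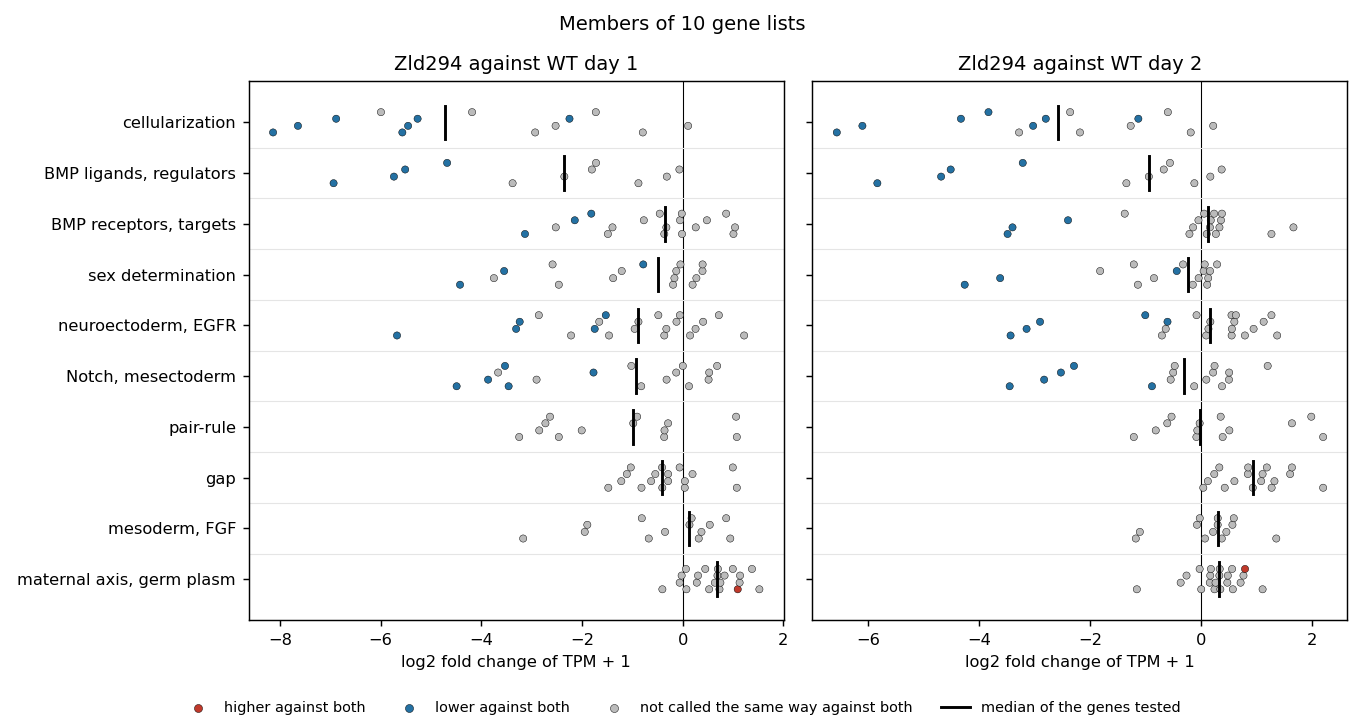
Log2 fold change of TPM + 1 for the tested members of 10 gene lists, in Zld294 against WT day 1 (left) and WT day 2 (right); points are genes, blue where called lower against both, red where called higher and grey otherwise, and black bars are list medians. The row marked cellularization holds cellularization and blastoderm-transient genes. This row and the BMP ligand list sit furthest to the left in both panels. The pair-rule, gap, mesoderm and maternal lists hold no blue point.

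Beyond the lists, the falls were spread over the genome. Of the 45 genes other than zld that fell past 3 against both, 26 were under 1 TPM in every Zld294 library and 40 at least 1 TPM in every wild-type library. No overlap of libraries was seen in 39 of the 45, against 2.49% of all genes tested. The 45 were picked for large falls, which favours such separation. Dtg was listed at 0 in all 8 Zld294 libraries, against 0.225 to 245 TPM in wild type. Among the wild-type libraries, replicate 3 was the highest of WT day 1 for 38 of the 45 and replicate 5 the highest of WT day 2 for 33, and replicate 3 was the lowest of WT day 2 for 38. The fall was larger against WT day 1 for 40 of the 45, and for none of them did the 2 effects differ at an adjusted p under 0.05 (limma on all 3 groups). These 45 include spo, a cytochrome P450 of ecdysone synthesis (-5.16 and -3.71), esg, a Snail-type zinc finger gene (-3.78 and -3.16), and Bro, a partner of the Runt-type factors (-7.21 and -5.69).

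Bro illustrates a split within a small family. It had 0, 0.0488 and 0.282 TPM in Zld294, against 212, 54.1 and 338 TPM in WT day 1 and 8.61, 49.5 and 288 TPM in WT day 2. Its paralog Bgb, which begins at 1639711 on chromosome 3L, ahead of Bro at 1647869, was not called, with 102 ± 8.15 TPM in Zld294 (SD, n = 8), 113 ± 24.8 TPM in WT day 1 (SD, n = 3) and 98.2 ± 10.0 TPM in WT day 2 (SD, n = 6). The factor gene run passed against neither wild type.

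The genes that fell were short and often had 1 exon. Of the 46 that fell past 3, 30 (65.2%) have a single exon in the annotation, against 732 of 7395 genes tested (9.91%), and the median length of the longest transcript was 1068 bases, against 2094 bases over all. Of all 324 lower genes 26.2% had a single exon, and of the 327 higher genes 9.79%. Of the 7 genes that rose past 3, 3 (42.9%) had a single exon, with a median longest transcript of 1552 bases. Of the 96 that rose past 1, 8 (8.33%) had a single exon. Among the 46, 6 genes lie in pairs within 10 kb of each other, and each pair is arranged head to head: CG14014 with CG18269, Elba1 with Elba3, and CG15876 with CG13713. The third pair lies 2755 bases apart inside RhoGEF64C on chromosome 3L, near the fallen genes CG13712, CG13711 and CG34266. Cyp12d1-p, Prx2540-1 and the histone gene His1:CG33834 have near-identical copies, so their levels are uncertain.

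The falls of ribosomal protein genes were small. Of 85 cytosolic ribosomal protein genes tested, 19 (22.4%) were lower against both and 1, RpS5b, was higher. The list medians were -0.23 and -0.33, beside 0.23 and 0.058 over all genes. RpL24 had 643, 715 and 774 TPM in Zld294, against 971, 893 and 1337 TPM in WT day 1 and 1013, 1139 and 1431 TPM in WT day 2 (log2 fold changes -0.56 and -0.70), with no overlap. Over all genes 4.38% were lower against both. With median-ratio scaling 37 of the 85 were lower against both. With the replicate block 0 were lower against WT day 1 or against both, and 52 were lower against WT day 2. Mitochondrial ribosomal protein genes went different ways: of 73 tested, 44 were higher against WT day 1 and 17 lower against WT day 2, 2 were higher against both and 8 were called in opposite directions. Over all genes 19.1% were higher against WT day 1 and 12% lower against WT day 2. With median-ratio scaling 21 of the 73 were higher against WT day 1. With the replicate block 1 was higher against WT day 1, 6 were lower against WT day 2 and 0 were higher against both.

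Of 21 maternal axis and germ plasm genes tested, 3 were higher against each wild type and none was lower. Over all genes 19.1% were higher against WT day 1 and 12.1% against WT day 2. The list medians were 0.69 and 0.34, beside 0.23 and 0.058 over all genes. Only piwi, a piRNA pathway gene, was higher against both, against 4.42% of all genes. Its calls were lost with the replicate block (limma adjusted p = 0.147 and 0.158), and it kept both in 12 of 30 alternatives. bcd had 225, 337 and 356.5 TPM in Zld294, against 82.5 to 424 TPM in WT day 1 and 30.3, 253 and 431 TPM in WT day 2, and was not called. Of 16 regulators of maternal mRNA clearance, Not3 and piwi were higher against both, against 4.42% of all genes. Not3 too lost both calls with the replicate block (limma adjusted p = 0.168 and 0.121). smg, a major clearance factor, was not called (0.41, limma adjusted p = 0.157, and 0.40, limma adjusted p = 0.0580). Of 21 cell cycle genes, Rca1 rose and Z600, an inhibitor of mitosis, fell, and the calls of Z600 were lost with the block. Over all genes 4.42% were higher and 4.38% lower against both, so these counts do not set the list apart. stg, the Cdc25 phosphatase gene, passed against neither (0.38 and 0.072).

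The genes that rose most were low in wild type and moderate in Zld294. The 12 largest rises without overlap were CG15047, Dscam4, gammaTub37C, tut, CG4562, narya, Rca1, Syt1, CG42342, meso18E, CG30159 and shams. Their summed level was 636 to 844 TPM in Zld294, 42.8 to 65.8 TPM in WT day 1 and 28.2 to 137 TPM in WT day 2. Of the 96 genes that rose past 1 against both, 93 were at least 1 TPM in every Zld294 library and 16 were under 1 TPM in every wild-type library. No overlap of libraries was seen in 68 of the 96, against 2.43% of all genes tested. The 96 were picked for large rises, which favours such separation.

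**Figure D4:**
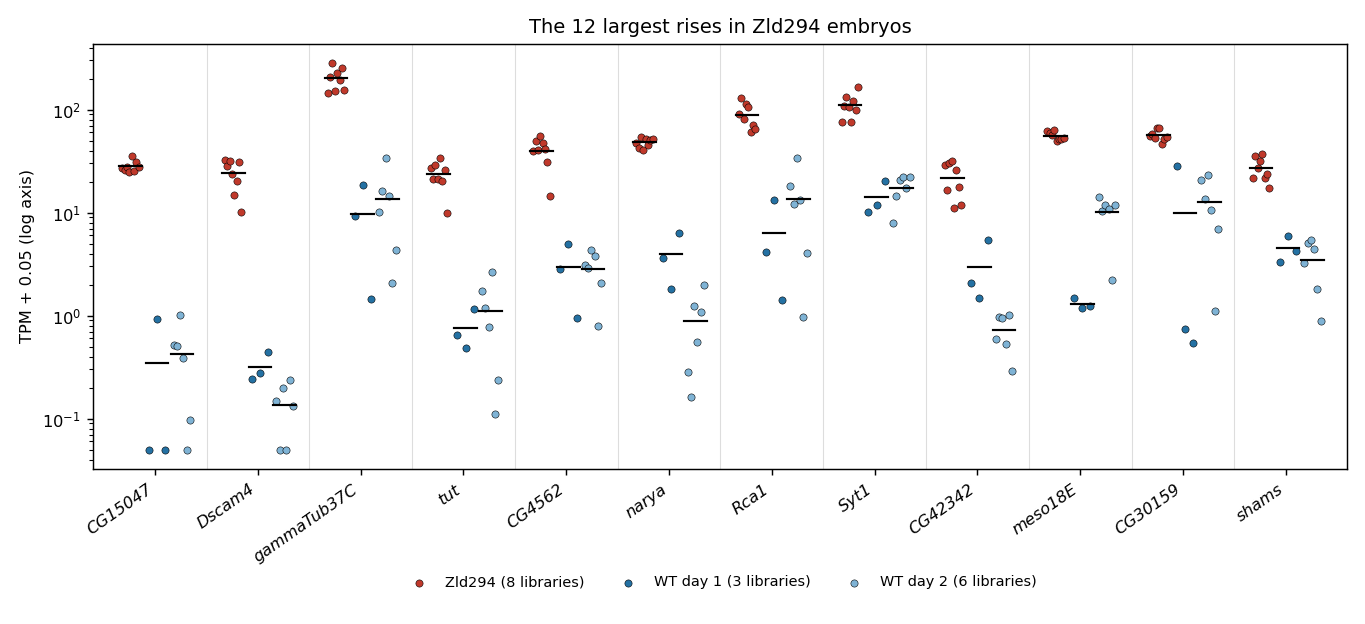
Level of the 12 genes with the largest rises in each library, as TPM + 0.05 on a log axis; points are libraries, bars are group means, with Zld294 in red, WT day 1 in dark blue and WT day 2 in light blue. The 12 genes were picked so that the 8 Zld294 points lie above the 9 wild-type points. On the log axis the 9 wild-type points together span a wider range than the 8 Zld294 points. Within WT day 1 alone this does not hold for every gene, for example shams.

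CG15047, an unnamed gene, had 24.9, 27.5 and 35.5 TPM in Zld294, against 0, 0.883 and 0 TPM in WT day 1 and 0, 0.395 and 0.958 TPM in WT day 2. Its log2 fold change was 4.56 (SE 0.20, limma adjusted p = 6.81e-08) against WT day 1 and 4.44 (SE 0.16, limma adjusted p = 5.14e-11) against WT day 2. It lies inside Bx on the same strand, and Bx was not called (0.58 and -0.28). Dscam4, a cell adhesion molecule of the immunoglobulin superfamily, had 10.1, 26.0 and 32.1 TPM in Zld294, against 0.191, 0.225 and 0.395 TPM in WT day 1 and 0, 0.0899 and 0.188 TPM in WT day 2 (4.21 and 4.44). It was the only tested member of its family of 4.

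The summed germ cell markers given above overlapped between Zld294 and both wild types. gammaTub37C, the maternal gamma-tubulin that nucleates microtubules in eggs and early embryos, had 146, 201 and 281 TPM in Zld294, against 9.31, 18.4 and 1.39 TPM in WT day 1 and 2.04, 12.4 and 34.2 TPM in WT day 2. Its log2 fold changes were 4.66 (SE 0.49, limma adjusted p = 5.68e-05) and 4.17 (SE 0.43, limma adjusted p = 8.35e-06), and the call against WT day 1 was lost with the replicate block (limma adjusted p = 0.0823). Rca1, an inhibitor of the anaphase-promoting complex, had 60.8, 85.5 and 129 TPM in Zld294, against 4.07, 13.3 and 1.36 TPM in WT day 1 and 0.909, 12.7 and 33.6 TPM in WT day 2 (3.98 and 3.09). In both genes the lowest wild-type libraries were replicate 3 of WT day 1 and replicate 5 of WT day 2.

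tut, an RNA-binding protein of the male germline, had 9.76, 23.5 and 33.7 TPM in Zld294, against 0.603, 0.440 and 1.10 TPM in WT day 1 and 0.0606, 0.937 and 2.59 TPM in WT day 2 (log2 fold changes 3.78 and 3.62). narya, a RING protein of meiotic recombination, had 40.1, 48.4 and 54.5 TPM in Zld294, against 3.57, 1.76 and 6.29 TPM in WT day 1 and 0.114, 0.765 and 1.92 TPM in WT day 2 (3.43 and 4.82). Syt1, the calcium sensor of synaptic vesicles, had 75.3, 107 and 166 TPM in Zld294, against 10.0, 11.8 and 20.1 TPM in WT day 1 and 7.86, 19.01 and 22.2 TPM in WT day 2 (2.91 and 2.62). All 3 belong to the 12 rises picked for no overlap with wild type. CG4562, an unnamed gene, had 14.6, 40.8 and 55.0 TPM in Zld294, against 2.81, 4.95 and 0.897 TPM in WT day 1 and 0.736, 2.94 and 4.30 TPM in WT day 2 (3.46 and 3.43). CG42342 had 11.0, 21.6 and 31.8 TPM in Zld294, against 2.001, 1.44 and 5.36 TPM in WT day 1 and 0.239, 0.722 and 0.974 TPM in WT day 2 (2.56 and 3.68). shams, a xylosyltransferase acting on Notch, rose by 2.34 and 2.74. CG30159, which overlaps Tsp42Ea on the same strand, rose by 3.75 and 2.42 and lost its call against WT day 1 with the replicate block (limma adjusted p = 0.142).

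Of the 12 rises, CG15047, narya and meso18E lie within 2 Mb of zld. Within 2 Mb, with zld left out, 14 of 211 tested genes (6.64%) were higher against both and 8 (3.79%) lower. Over chromosome X, zld included, 59 of 1297 (4.55%) were higher and 71 (5.47%) lower. Over all genes the shares were 4.42% and 4.38%. meso18E, which starts 0.053 Mb to the left of zld, had 49.1, 55.3 and 62.6 TPM in Zld294, against 1.43, 1.12 and 1.18 TPM in WT day 1 and 2.19, 11.3 and 14.1 TPM in WT day 2. Its log2 fold changes were 4.66 (SE 0.12, limma adjusted p = 8.49e-10) and 2.49 (SE 0.28, limma adjusted p = 1.52e-05), and they differed from each other (difference -2.17, limma adjusted p = 0.000342). Other named genes of the window were CG42450, rictor, unc, Sdic1, unc-4 and Wnt5, which rose by 0.63 to 1.73 on the log2 scale, and CG12204, CG1324 and THADA, which fell. These 9 lost the call against WT day 1 with the replicate block. The ribosomal protein gene RpS10b, which fell, and tty, which was called in opposite directions, also lie in the window. Of the 71 lower genes on chromosome X, 7 were ribosomal RNA pseudogenes at the far end of the assembly.

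**Figure D5:**
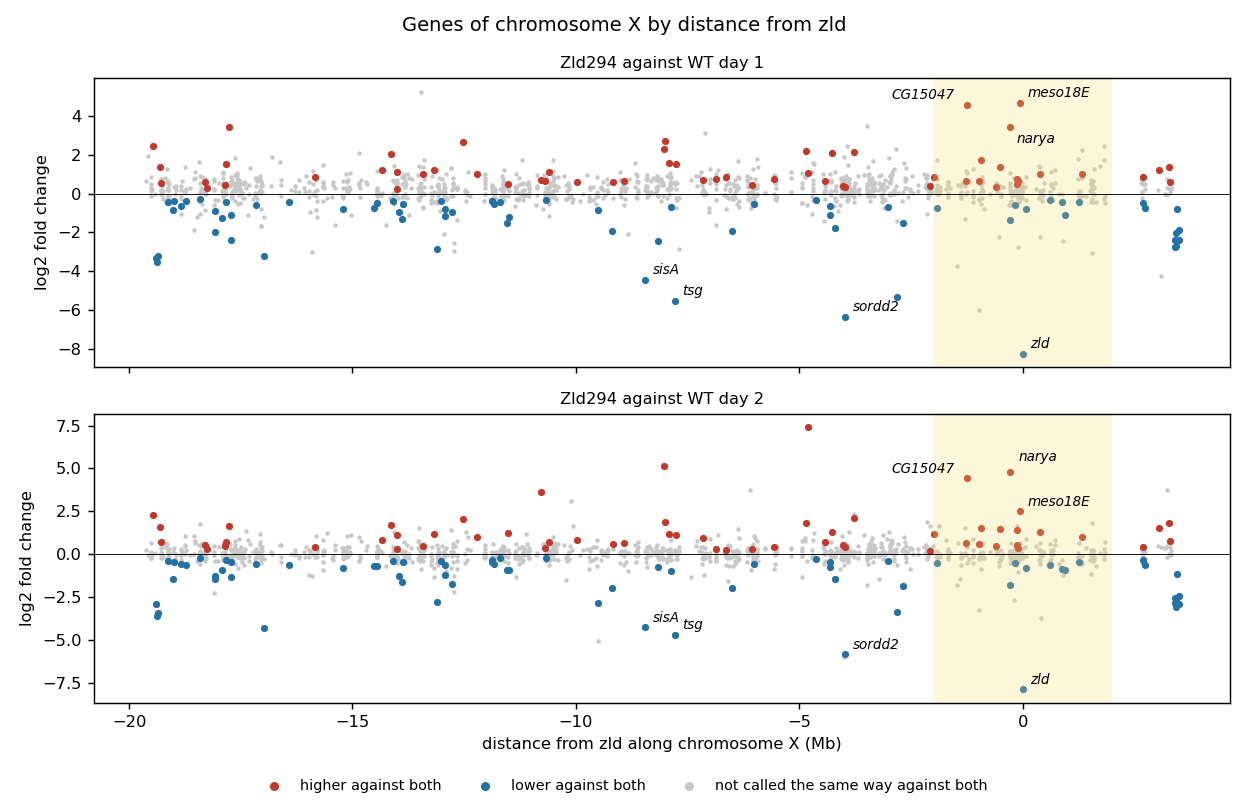
Log2 fold change in Zld294 against WT day 1 (top) and WT day 2 (bottom) for the tested genes of chromosome X, by distance from zld in Mb; red points are called higher against both, blue points lower and grey points neither, and the yellow band marks 2 Mb either side of zld. Zld lies lowest in both panels, CG15047, narya and meso18E rise inside the band, and the blue points at the right end are ribosomal RNA pseudogenes.

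The 2 wild types were not interchangeable as a baseline. Their effects differed for 1478 of 7395 genes (limma on all 3 groups), 1320 genes were called against WT day 1 only and 1023 against WT day 2 only. CG12219 had 80.9, 85.6 and 93.8 TPM in Zld294, against 1.57, 0.947 and 1.49 TPM in WT day 1 and 96.8, 103 and 124 TPM in WT day 2, so that it was higher against one (5.24) and lower against the other (-0.29). Rpi, a ribose-5-phosphate isomerase, and Kebab went the same way as CG12219, with 3.27 and -0.56 for Rpi and 1.43 and -2.24 for Kebab.

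Asph had 23.2, 38.3 and 54.9 TPM in Zld294, against 78.6, 66.7 and 63.9 TPM in WT day 1 and 0.217, 1.10 and 4.23 TPM in WT day 2 (log2 fold changes -0.90 and 4.09). tty (-3.04 and 1.82) and CG11200 (-1.70 and 2.67) showed the same order of groups, WT day 1 above Zld294 above WT day 2. In the blocked fits Kebab (limma adjusted p = 0.184), Asph (adjusted p = 0.0887) and tty (adjusted p = 0.0563) lost the call against WT day 1, and CG12219 lost that against WT day 2 (adjusted p = 0.0591). pdgy, chosen after its values were seen, was called higher against both but by 1.06 against WT day 1 and 7.39 against WT day 2, with 191 ± 21.4 TPM in Zld294 (SD, n = 8), 102 ± 55.3 TPM in WT day 1 (SD, n = 3) and 0.151 ± 0.181 TPM in WT day 2 (SD, n = 6).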

How the data were processed

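RNA of pooled embryos was sequenced by the authors. The labels' protocols name TRIzol extraction and a NEBNext Ultra II library kit. The submitters' processing notes name kallisto, edgeR, limma and the genome build BDGP6, with no versions. The authors deposited 1 TPM value per gene symbol and library, scaled by them to the same total in every library. The unit is read from these column sums, and read depth is not given in the sources used here, so no counting error can be attached. The 9 libraries with the label Zf5 were not used.

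Genes with at least 1 TPM in at least 3 of the 17 libraries entered linear models on log2(TPM + 1), fitted separately against each wild type (limma 3.58.1, R 4.3.3, variances moderated with a trend). The difference of the 2 effects was the contrast of the wild types in 1 fit of the 3 groups. The code was tested on simulated data. Of 14220 symbols 13999 matched the Ensembl 115 annotation (BDGP6.54), 211 matched through an older symbol and 10 did not match. Coordinates are from that annotation. Whether reads were assigned by strand is not given in the sources used here, so overlapping genes are uncertain.

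The named genes are zld, the 12 largest rises and 12 largest falls called against both wild types with no overlap of libraries and a mean of at least 5 TPM, up to 4 members of each list, the 3 largest opposite calls each way and genes within 2 Mb of zld. Others were chosen after their values were seen. The groups, lists and tests were chosen with earlier results of these data known.

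Replicate numbers are shared between the groups. The main fits had no replicate term. The deviations of same-numbered libraries correlated at 0.137, 0.726 and 0.440 between Zld294 and WT day 1. The numbers were treated as pairs there only in the alternative with the replicate block. These correlations do not establish pairs, and the labelled days of these groups differ. The labels give no source for the pairing, and the numbers in the file headers do not follow the replicate numbers of the WT titles. Alternatives changed the pseudocount, the filter, the scaling, the weights, the model and the libraries.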

Additional observations from a re-analysis of the deposited data

Results flagged for a closer look

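In 144 groups of 6 or 8 libraries examined, 13 held 1 library far from the others of its group, where chance flags about 1 in 20. Among the genes that fell, the high Zld294 libraries were replicate 7 for sordd2 (0.902 TPM) and Bro (0.282 TPM), replicate 8 for CG8960 (0.711 TPM), wit (3.49 TPM) and wor (0.256 TPM), and replicate 6 for srw (0.631 TPM). All but wit stayed below 1 TPM. Replicates 7 and 8 also had the most zld transcript. Of 143 fallen genes without overlap and with a mean of at least 5 TPM, 9 had both these replicates above the other 6 Zld294 libraries, zld included. Replicate 8 was the lowest Zld294 library for the risen genes tut (9.76 TPM) and CG4562 (14.6 TPM). Sdic1 was high in Zld294 replicate 2 (4.46 TPM) and in WT day 2 replicate 3 (0.746 TPM), CG11200 was low in Zld294 replicate 5 (1.87 TPM), meso18E was low in WT day 2 replicate 5 (2.19 TPM) and Tollo was high in WT day 2 replicate 3 (37.5 TPM).

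For 11 named genes the effects against the 2 wild types differed (limma on all 3 groups). The log2 effect against WT day 2 exceeded that against WT day 1 by 1.39 for narya (adjusted p = 0.00374), 1.12 for CG42342 (adjusted p = 0.0361), 1.68 for Rpt3R, a testis proteasome subunit (adjusted p = 0.000563), 4.98 for Asph (adjusted p = 6.55e-08), 4.86 for tty (adjusted p = 6.48e-09) and 4.36 for CG11200 (adjusted p = 9.32e-06). The same difference was negative for meso18E (-2.17, adjusted p = 0.000342), wit (-1.34, adjusted p = 0.0301), CG12219 (-5.53, adjusted p = 3.58e-15), Rpi (-3.83, adjusted p = 2.39e-07) and Kebab (-3.67, adjusted p = 4.53e-06). For narya, CG42342, meso18E, wit and Rpt3R both effects had the same sign.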

How the results depend on the processing

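TPM without depth, 3 libraries of WT day 1 and a day that goes with each genotype limit these results. Counts are given as higher and lower. Requiring 1 TPM in all 17 libraries, which removes genes absent from Zld294, gave 364 lower against WT day 1 and 173 lower against both. Median-ratio scaling gave 811 and 974 against WT day 1. Library quality weights, whose estimation stopped before its convergence tolerance, gave 4027 and 1755 against WT day 1, 2018 and 1812 against WT day 2, and 1320 and 748 against both. A stage covariate, the mean level of maternal axis and germ plasm genes, gave 2409 and 1067, 1906 and 1863, and 1003 and 639. Pooling both wild types gave 639 and 556. The replicate block gave 59 and 106 against WT day 1, 447 and 599 against WT day 2, and 32 and 69 against both, 97 of them also called without it. Its cause was not tested. Same-numbered libraries of Zld294 and WT day 2 correlated between -0.466 and 0.561, so the numbers do not pair them. Of 72 named genes, 35 lost a call against WT day 1 with the block and 9 against WT day 2.

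Leaving out 1 library in turn gave 903 to 2195 higher and 439 to 834 lower against WT day 1, 721 to 1338 and 719 to 1253 against WT day 2, and 244 to 379 and 249 to 344 against both. Chosen after seeing the data, leaving out Zld294 replicates 7 and 8 gave 892 higher against WT day 1, 597 higher against WT day 2 and 194 higher against both, and leaving out WT day 1 replicate 3 with WT day 2 replicate 5 gave 519 higher against both. The causes of these changes were not tested. Of the 24 largest rises and falls, 22 kept both calls under every alternative that tested them, and no named gene changed direction.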
